A study of Mus musculus with 20 samples.

Results

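Small RNA of purified pachytene spermatocytes was compared with small RNA of the whole testis at day 7 after birth, in 2 libraries each, which are 4 of the 20 libraries of the series. The pachytene cells came from adult mice aged 70 to 80 days and were parted from other testis cells by sedimentation at unit gravity, which sorts cells by size. Microscopy put their purity at about 90%, the remainder being taken for spermatocytes of neighbouring stages, and no somatic cells were seen, per the labels. The day 7 group was undivided testis tissue. All mice were wild-type C57Bl/6J, and the labels state 2 biological replicates for each stage. The deposited table holds 4940 rows, each named by a word of 7 bases, and the 4 libraries were the ones whose columns carry the labels of these groups. Age, purification and cell makeup all differ between the groups and cannot be told apart. In bulk RNA, fewer cells of a type and less RNA per cell cannot be told apart either.

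MicroRNAs are short RNAs that pair with messenger RNAs and lower their output. Pairing rests mostly on the seed, bases 2 to 8 of the mature miRNA, so miRNAs with one seed form a family with overlapping targets. Pachytene is the long stage of meiotic prophase in which paired chromosomes complete recombination and the X and Y chromosomes are transcriptionally silenced in a separate body. The day 7 testis holds spermatogonia, the mitotic germ cells, beside dividing Sertoli cells, peritubular muscle-like cells, Leydig cells, vessels and blood. In the mouse, miR-34b/c and miR-449 are germ cell miRNAs that act redundantly in spermatogenesis. The miRNAs of the imprinted Dlk1-Dio3 region are transcribed from the maternal chromosome, and let-7 is a family that rises with differentiation in many tissues.

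The mature sequences on which the main differences rest are given first, from RefSeq (GRCm38.p6), written 5′ to 3′ with the seed in capitals. The first 6 are families that were higher in pachytene spermatocytes, among them miR-34a, miR-34b and miR-449a, which share one seed.
miR-34a-5p: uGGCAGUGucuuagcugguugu
miR-34b-5p: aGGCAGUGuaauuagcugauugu
miR-449a-5p: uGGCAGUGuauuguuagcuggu
miR-34b-3p: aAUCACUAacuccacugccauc
miR-184-3p: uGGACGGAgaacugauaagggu
miR-191-5p: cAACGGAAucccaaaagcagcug
The mature miR-34b-5p lies at chr9:51103610-51103632 on the minus strand, in the gene Mir34b, whose other arm is miR-34b-3p at chr9:51103574-51103595. The mature miR-184-3p lies at chr9:89802263-89802284 on the minus strand, and miR-191-5p at chr9:108568325-108568347 on the plus strand.

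The next 5 come from one cluster on chromosome X and were higher in pachytene spermatocytes, each with a seed of its own.
miR-743a-3p: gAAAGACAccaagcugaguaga
miR-741-3p: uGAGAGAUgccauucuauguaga
miR-881-3p: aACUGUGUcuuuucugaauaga
miR-871-3p: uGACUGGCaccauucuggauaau
miR-470-5p: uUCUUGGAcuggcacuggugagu
All 5 lie on the minus strand, from miR-743a-3p at chrX:66776760-66776781 to miR-470-5p at chrX:66813995-66814017.

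The last set were lower in pachytene spermatocytes, with 4 from the Dlk1-Dio3 region on chromosome 12 followed by 4 from other places.
miR-127-3p: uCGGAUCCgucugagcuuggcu
miR-434-5p: gCUCGACUcaugguuugaacca
miR-434-3p: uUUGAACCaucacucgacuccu
miR-136-5p: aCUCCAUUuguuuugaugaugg
let-7a-5p: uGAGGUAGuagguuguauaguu
miR-125b-5p: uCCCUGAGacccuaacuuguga
miR-199a-3p: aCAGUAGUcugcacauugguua
miR-202-5p: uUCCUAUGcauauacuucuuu
The 4 Dlk1-Dio3 miRNAs lie on the plus strand, from miR-127-3p at chr12:109592888-109592909 to miR-136-5p at chr12:109595331-109595352. The mature let-7a-5p from the gene Mirlet7a-1 lies at chr13:48538239-48538260, and miR-202-5p at chr7:139957732-139957752, both on the minus strand.

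A row is called by a family below when its 7 bases are the seed of a mature miRNA in RefSeq, and a row can hold several miRNAs. Of the 4940 rows, 1127 are such seeds, 1221 are a seed shifted by a base, and 2592 matched neither. Because 8.53% of all words of 7 bases are some mature seed, a match to a little-known miRNA can be a coincidence of letters. A level is given in CPM, the count as it would be at one fixed library depth. Depths were first adjusted by TMM, a method that centres the change of most rows.

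The pachytene libraries held 338443 and 112967 counts, against 3392587 and 8591736 counts in the day 7 libraries. One count was worth 2.91 and 5.30 CPM in pachytene libraries, against 0.299 and 0.117 CPM in day 7 libraries. Replicates differed beyond sampling noise in both groups. Among 217 rows of at least 100 CPM in either group, the replicates differed more than 2-fold in 90 rows of pachytene spermatocytes and in 2 rows of day 7 testis. The gene counts of matching RNA libraries were used to check the labels. The summed level of 8 pachytene markers was 13070 and 15410 CPM in pachytene spermatocytes, against 101.1 and 97.48 CPM in day 7 testis. Sertoli markers (6 genes) summed to 117.2 and 72.48 CPM in pachytene spermatocytes, against 1938 and 2064 CPM in day 7 testis. Stromal and peritubular markers (5 genes) summed to 54.72 and 27.13 CPM in pachytene spermatocytes, against 3573 and 3853 CPM in day 7 testis. Spermatid markers (6 genes) summed to 5393 and 3826 CPM in pachytene spermatocytes, against 1.093 and 1.464 CPM in day 7 testis, and their part in the results below was not tested.

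**Figure D1:**
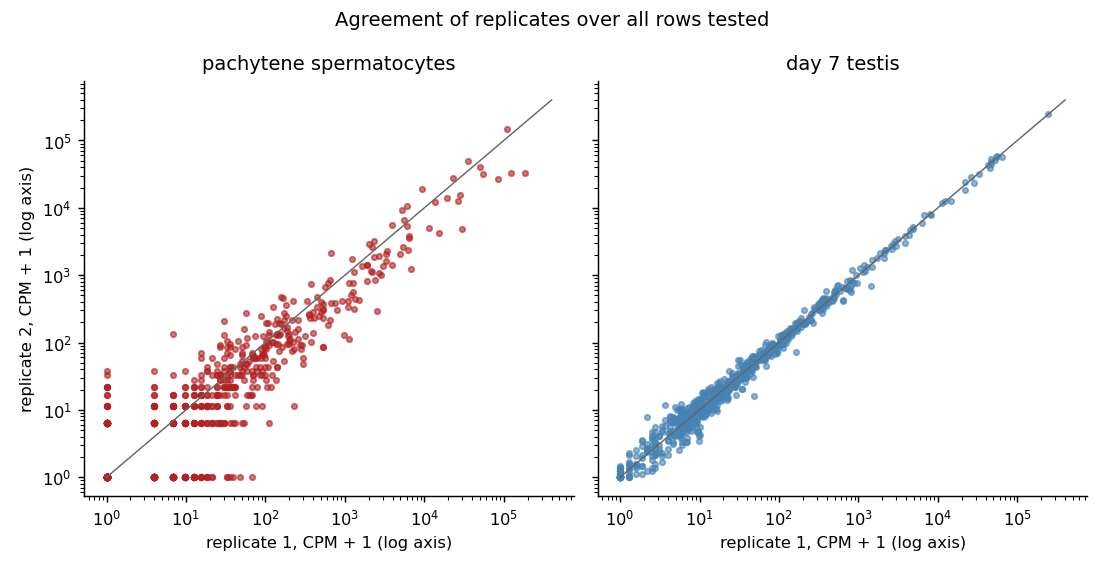
Agreement of the 2 replicates of pachytene spermatocytes (left) and of day 7 testis (right), each point one of the 745 rows tested, as CPM + 1 on log axes with the line of equal values. The pachytene points scatter more widely, and the steps at their low end are single counts.

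Of 745 rows with enough counts to test, 400 (53.7%) differed between pachytene spermatocytes and day 7 testis at an adjusted p under 0.05 by edgeR's quasi-likelihood test. Higher in pachytene spermatocytes were 153 rows (20.5%), and lower were 247 rows (33.2%). Both pachytene libraries lay above both day 7 libraries in 199 rows (26.7%) and below both in 397 rows (53.3%). This split depends on the scaling: the higher rows were 38.2% of all calls here, 49.6% with median-ratio size factors, 51.5% with DESeq2 and 54.2% over rows of at least 100 CPM. The median log2 change of all rows was -0.98, and median-ratio factors moved it by 0.50. Without pachytene replicate 1, the higher rows numbered 99, and without day 7 replicate 1 the lower rows numbered 159.

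**Figure D2:**
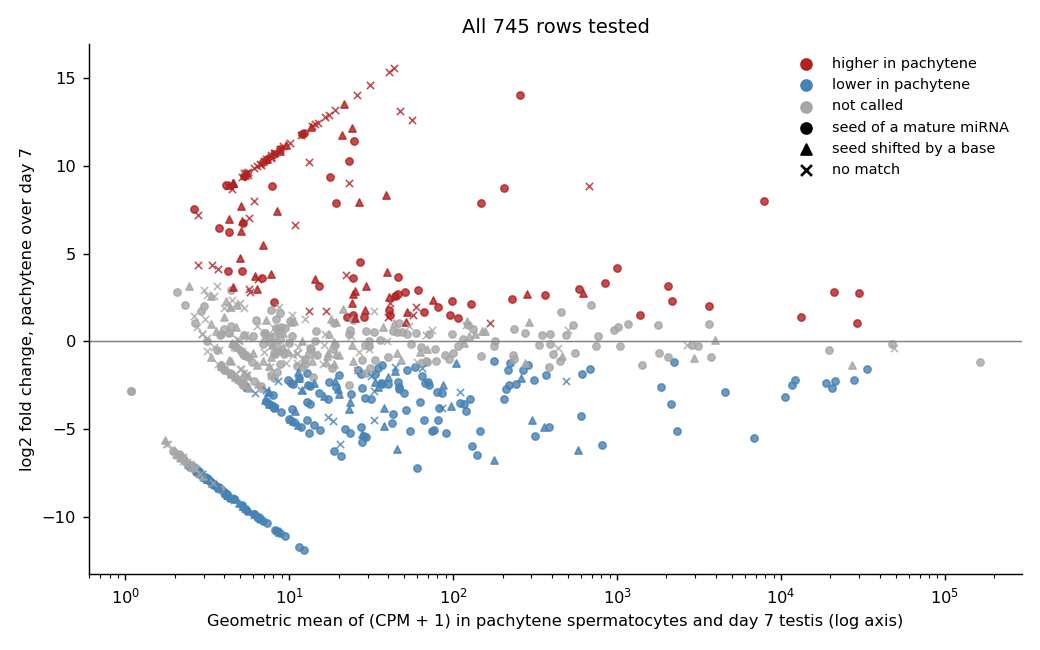
Log2 fold change of pachytene spermatocytes over day 7 testis against the mean level of each of the 745 rows tested, coloured by call (153 higher, 247 lower) and shaped by the match to a miRNA. The straight edges at the left are rows with no count in one group, where the fitted change depends on a small added count.

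The family of miR-34 and miR-449 was among the most abundant rows of pachytene spermatocytes and a minor one of day 7 testis. Its 5p row had 108245 and 145943 CPM in pachytene spermatocytes, against 392 and 584 CPM in day 7 testis. Both pachytene libraries lay far above both day 7 libraries, with a log2 fold change of 8.02 ± 0.57 (SE, n = 2 libraries each; edgeR adjusted p = 5.518e-06). As a share of raw counts it took 11.0% and 24.4% of the pachytene libraries, against 0.0387% and 0.0583% of the day 7 libraries. The other arm of miR-34b/c carries a different seed and rose as well. Its row had 5451 and 2640 CPM in pachytene spermatocytes, against 7.17 and 11.5 CPM in day 7 testis (log2 fold change 8.73 ± 0.79, SE; edgeR adjusted p = 7.996e-06). The 5p row matched miR-34a, miR-34b, miR-449a and miR-449c and cannot part them, whereas the 3p row matched miR-34b and miR-34c only. The RefSeq table held no entry for miR-34c-5p, so the 5p row is not shown to leave it out. A further row, the 5p seed of miR-34b and miR-449c shifted by a base, had 157 and 472 CPM in pachytene spermatocytes, against 1.49 and 1.05 CPM in day 7 testis.

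MiR-184-3p rose by about as much on the log scale from a low start. It had 2981 and 1383 CPM in pachytene spermatocytes, against 8.67 and 9.44 CPM in day 7 testis (log2 fold change 7.90 ± 0.72, SE; edgeR adjusted p = 7.996e-06). MiR-191-5p, an abundant miRNA of many tissues, had 123246 and 33393 CPM in pachytene spermatocytes, against 11249 and 11841 CPM in day 7 testis. The pachytene replicates of miR-191-5p differed widely but did not overlap day 7 testis, and the log2 fold change was 2.76 ± 0.62 (SE; edgeR adjusted p = 0.003077). In the mouse, miR-191 and miR-425 come from neighbouring genes. The row of miR-425-5p, which also matches miR-489-3p, had 2162 and 1108 CPM in pachytene spermatocytes, against 189 and 229 CPM in day 7 testis (log2 fold change 2.97 ± 0.47, SE; edgeR adjusted p = 0.0003291).

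A list of 7 rows of meiotic and late germ cell miRNAs had 3 members higher and none lower, beside 20.5% and 33.2% of all rows, and a median log2 change of 1.68, beside -0.98 over all rows. Its higher members were the rows of miR-34 and miR-449 (5p), miR-184-3p and miR-191-5p. The row of miR-204-5p had 1305 and 318 CPM in pachytene spermatocytes, against 204 and 307 CPM in day 7 testis, and did not pass the test (log2 fold change 1.68 ± 0.73, SE; edgeR adjusted p = 0.07274). It was called higher in 11 of 21 other settings, among them median-ratio factors, DESeq2 and without pachytene replicate 2. MiR-183-5p had 604 and 180 CPM in pachytene spermatocytes, against 349 and 270 CPM in day 7 testis, and its groups overlapped. MiR-182-5p, from the same cluster, had 3423 and 2322 CPM in pachytene spermatocytes, against 3809 and 2964 CPM in day 7 testis (log2 fold change -0.24 ± 0.45, SE; edgeR adjusted p = 0.6789).

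Other families rose from a middle level, all with libraries that did not overlap; those in this paragraph were picked from their values. MiR-1839-5p had 6145 and 2359 CPM in pachytene spermatocytes, against 250 and 218 CPM in day 7 testis (log2 fold change 4.18 ± 0.54, SE). The miR-192/215-5p row had 3893 and 5597 CPM in pachytene spermatocytes, against 937 and 1016 CPM in day 7 testis (log2 fold change 2.28 ± 0.42, SE). MiR-29-3p, a family known for targeting collagen messages, had 1261 and 562 CPM in pachytene spermatocytes, against 148 and 140 CPM in day 7 testis (log2 fold change 2.66 ± 0.60, SE; edgeR adjusted p = 0.003071). It was the 1 member that rose in a list of 10 smooth muscle and fibroblast rows, 7 of which fell.

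**Figure D3:**
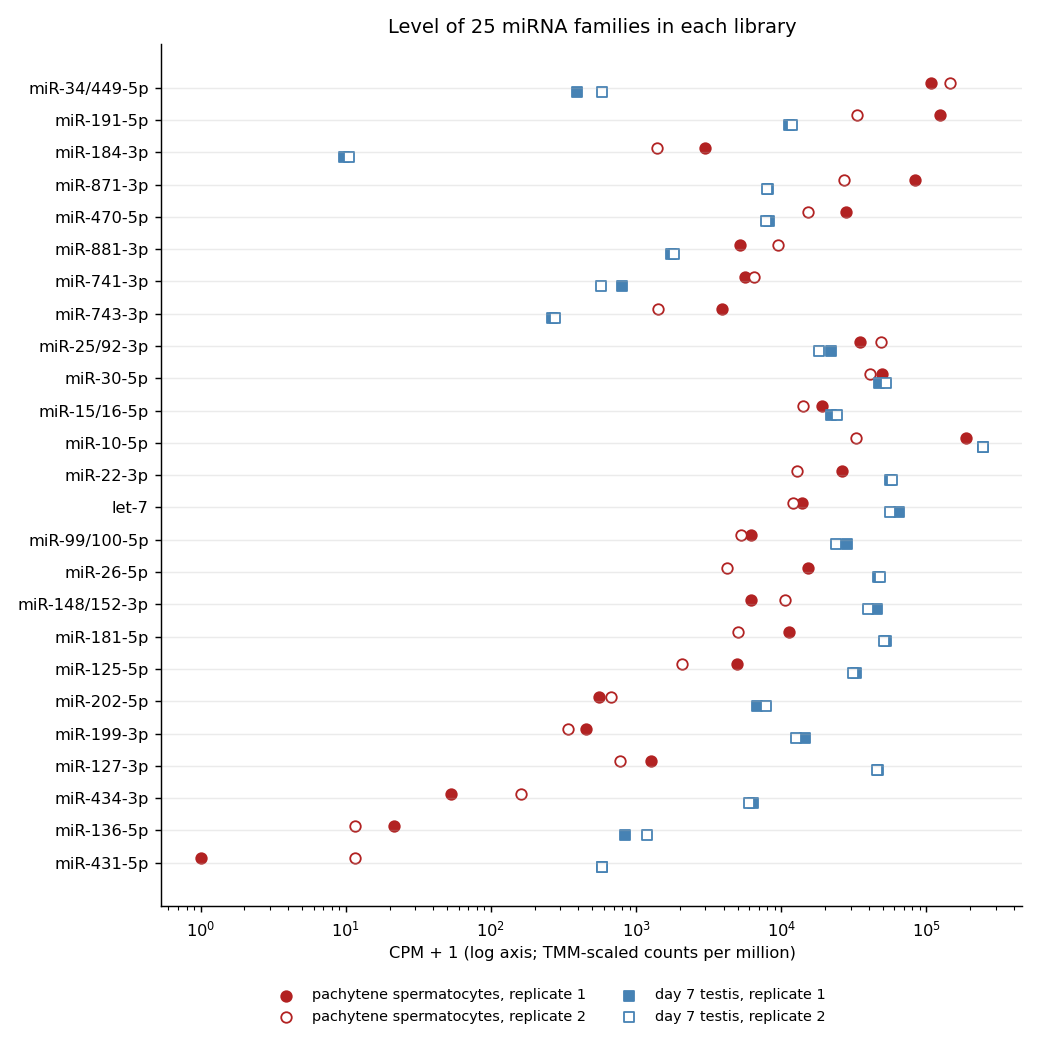
Level of 25 miRNA families in each library, as CPM + 1 on a log axis, with pachytene spermatocytes (circles) above day 7 testis (squares) in each row and replicate 2 drawn open. The circles of miR-34 and miR-449 (5p) stand at 108245 and 145943 CPM, and the miR-127-3p circles at 1264 and 769 CPM, far from their squares.

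A cluster of miRNA genes on chromosome X was higher as a group in pachytene spermatocytes. The span from its first to its last listed member, chrX:66776760-68010170 in GRCm38.p6, held 27 tested rows whose miRNAs all lie within it. Of these, 16 (59.3%) were higher in pachytene spermatocytes and none was lower, beside 20.5% and 33.2% of all rows. Their summed level was 143518 and 70189 CPM in pachytene spermatocytes, against 25796 and 24675 CPM in day 7 testis. The count of higher rows was 9 without pachytene replicate 1, which carried the higher sum, and ranged from 9 to 23 over all settings tried.

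MiR-871-3p was the most abundant of these rows in pachytene spermatocytes, with 83981 and 27228 CPM in pachytene spermatocytes, against 8039 and 7985 CPM in day 7 testis (log2 fold change 2.80 ± 0.62, SE; edgeR adjusted p = 0.002923). MiR-470-5p had 27692 and 15302 CPM in pachytene spermatocytes, against 8262 and 7857 CPM in day 7 testis (log2 fold change 1.42 ± 0.50, SE; edgeR adjusted p = 0.03382). Its call was lost without either day 7 library, without pachytene replicate 1 or without day 1 replicate 2. MiR-881-3p had 5210 and 9419 CPM in pachytene spermatocytes, against 1732 and 1826 CPM in day 7 testis (log2 fold change 2.04 ± 0.45, SE; edgeR adjusted p = 0.002587). Unlike miR-871-3p, it was higher in pachytene replicate 2 than in replicate 1. Its other arm, miR-881-5p, had 186 and 95.4 CPM in pachytene spermatocytes and no count in day 7 testis, at least 559-fold higher at a floor of 3 counts over the day 7 group. MiR-741-3p had 5619 and 6520 CPM in pachytene spermatocytes, against 797 and 569 CPM in day 7 testis (log2 fold change 3.15 ± 0.59, SE; edgeR adjusted p = 0.0009251). The miR-743-3p row had 3888 and 1410 CPM in pachytene spermatocytes, against 261 and 276 CPM in day 7 testis (log2 fold change 3.31 ± 0.68, SE; edgeR adjusted p = 0.001732). These groups did not overlap in any of the 6 rows, with the pachytene libraries higher, as in 26.7% of all rows. The miR-465-5p row had 6442 and 3785 CPM in pachytene spermatocytes, against 2658 and 2435 CPM in day 7 testis, and did not pass the test (log2 fold change 1.01 ± 0.50, SE; edgeR adjusted p = 0.1047). It was called higher in 9 of 21 other settings, among them median-ratio factors, DESeq2 and without leptotene/zygotene replicate 1.

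Rarer members of the X cluster rose too, and were picked here from their values. MiR-470-3p, the other arm of miR-470, had 98.8 and 58.3 CPM in pachytene spermatocytes, against 6.28 and 6.65 CPM in day 7 testis (log2 fold change 3.63; edgeR adjusted p = 0.0008928). MiR-471-3p had 224 and 101 CPM in pachytene spermatocytes, against 17.3 and 26.2 CPM in day 7 testis (log2 fold change 2.92; edgeR adjusted p = 0.001017). The miR-883-3p row had 668 and 387 CPM in pachytene spermatocytes, against 106 and 91.8 CPM in day 7 testis (log2 fold change 2.42; edgeR adjusted p = 0.005674). In these 3 rows both pachytene libraries stood above both day 7 libraries, as in 26.7% of all rows. MiR-463-5p did not pass the test, at 1206 and 514 CPM in pachytene spermatocytes, against 726 and 641 CPM in day 7 testis, with overlapping groups (log2 fold change 0.34; edgeR adjusted p = 0.6161). MiR-878-5p had 642 and 843 CPM in pachytene spermatocytes, against 380 and 387 CPM in day 7 testis, and was not called either (edgeR adjusted p = 0.08226).

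Rows elsewhere on chromosome X were mostly lower. Of 23 tested rows placed elsewhere on X, none was higher in pachytene spermatocytes and 16 (69.6%) were lower, beside 33.2% of all rows. Their summed level was 493.9 and 280.9 CPM in pachytene spermatocytes, against 2464.6 and 2303.1 CPM in day 7 testis. MiR-450b-5p had 26.1 and 5.30 CPM in pachytene spermatocytes, against 352 and 426 CPM in day 7 testis. MiR-322-3p, from the same cluster, had 34.9 and 5.30 CPM in pachytene spermatocytes, against 323 and 307 CPM in day 7 testis (log2 fold change -3.79; edgeR adjusted p = 0.0005229). MiR-542-3p, also of that cluster, had 23.2 and 10.6 CPM in pachytene spermatocytes, against 110 and 132 CPM in day 7 testis (log2 fold change -2.73; edgeR adjusted p = 0.002083). MiR-676-3p had 95.9 and 63.6 CPM in pachytene spermatocytes, against 644 and 432 CPM in day 7 testis (log2 fold change -2.73; edgeR adjusted p = 0.0005689). The row of miR-500-3p and miR-501-3p was not among them, at 142 and 95.4 CPM in pachytene spermatocytes, against 120 and 96.1 CPM in day 7 testis, with groups that overlapped. The median log2 change was 1.76 in the cluster and -2.42 elsewhere on X; this gap was not itself tested. With rows at 0 set to the floor of 3 counts, these medians were 1.76 and -2.08, and the median of all rows was -0.34.

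**Figure D4:**
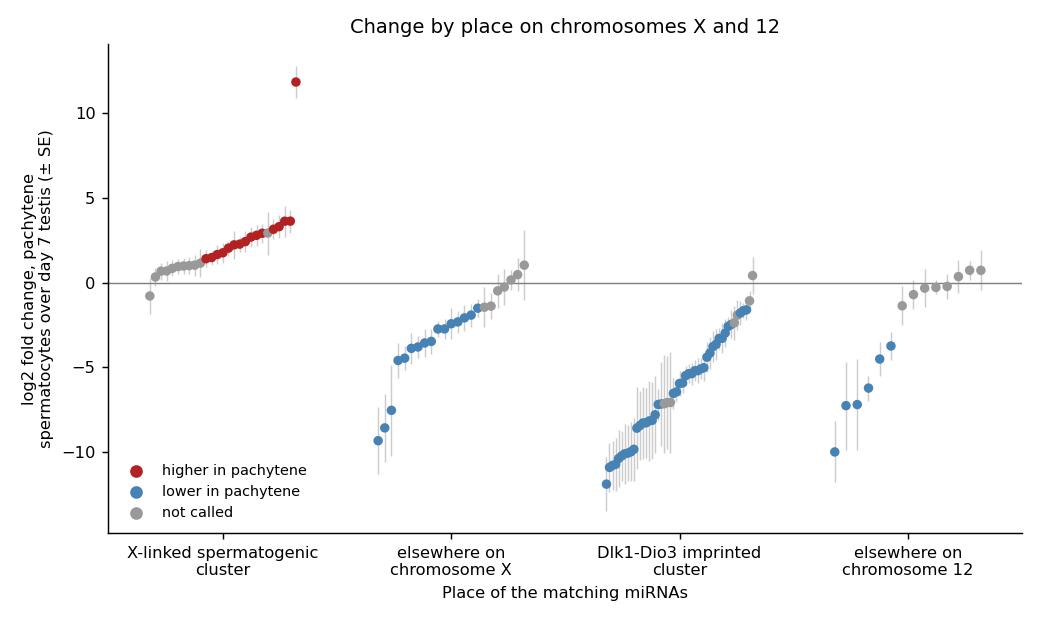
Log2 fold change (± SE) of pachytene spermatocytes over day 7 testis for each tested row placed in the X-linked cluster (27 rows), elsewhere on X (23), in the Dlk1-Dio3 span (49) and elsewhere on chromosome 12 (14), sorted within each group. The X cluster lies mostly above 0 and the Dlk1-Dio3 span almost all below, where the lowest changes belong to rows with no pachytene count.

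The miRNAs of the Dlk1-Dio3 region fell together. The span chr12:109585850-109743784 held 49 tested rows, of which 42 (85.7%) were lower in pachytene spermatocytes and none was higher, beside 33.2% and 20.5% of all rows. Their summed level was 2795 and 1696 CPM in pachytene spermatocytes, against 64407 and 64773 CPM in day 7 testis. Of the 49 rows, 21 had no pachytene count, and 18 of those were called lower. The other 28 rows had a pachytene count, 24 of them were called lower, and their median log2 change was -3.96. Over all 49 rows the fitted median was -5.95, and it was -2.97 with rows at 0 set to the floor.

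MiR-127-3p was the most abundant row of the span, with 1264 and 769 CPM in pachytene spermatocytes, against 45997 and 45409 CPM in day 7 testis (log2 fold change -5.49 ± 0.57, SE; edgeR adjusted p = 1.504e-05). It took 0.128% of the counts of each pachytene library, against 4.54% and 4.53% of the day 7 libraries. Both arms of miR-434 fell. MiR-434-3p had 52.3 and 159 CPM in pachytene spermatocytes, against 6398 and 5984 CPM in day 7 testis (log2 fold change -5.92 ± 0.62, SE; edgeR adjusted p = 1.532e-05). MiR-434-5p had 17.4 and 10.6 CPM in pachytene spermatocytes, against 1171 and 1396 CPM in day 7 testis (log2 fold change -6.45 ± 0.59, SE; edgeR adjusted p = 7.996e-06). MiR-136-5p had 20.3 and 10.6 CPM in pachytene spermatocytes, against 834 and 1195 CPM in day 7 testis (log2 fold change -5.95 ± 0.72, SE). Its other arm, miR-136-3p, had no count in pachytene spermatocytes, against 136 and 162 CPM in day 7 testis, at least 26.4-fold lower at a floor of 3 counts over the pachytene group. MiR-431-5p had 0 and 10.6 CPM in pachytene spermatocytes, against 577 and 580 CPM in day 7 testis, a ratio of 0.00648 (95% counting interval 0.000785 to 0.0234). In none of these rows did the groups overlap, with the pachytene libraries lower, as in 53.3% of all rows.

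Falls in the region were not all of one size. MiR-381-3p had 58.1 and 37.1 CPM in pachytene spermatocytes, against 1882 and 2157 CPM in day 7 testis (log2 fold change -5.37 ± 0.57, SE; edgeR adjusted p = 1.601e-05). MiR-300-3p had 17.4 and 10.6 CPM in pachytene spermatocytes, against 504 and 578 CPM in day 7 testis (log2 fold change -5.20 ± 0.61, SE; edgeR adjusted p = 3.935e-05). MiR-541-5p had 1095 and 419 CPM in pachytene spermatocytes, against 4411 and 4659 CPM in day 7 testis (log2 fold change -2.58 ± 0.53, SE; edgeR adjusted p = 0.001738). MiR-409-3p had 108 and 196 CPM in pachytene spermatocytes, against 473 and 467 CPM in day 7 testis (log2 fold change -1.65 ± 0.45, SE; edgeR adjusted p = 0.009718). MiR-543-3p had 29.1 and 5.30 CPM in pachytene spermatocytes, against 43.0 and 39.6 CPM in day 7 testis, and did not pass the test. Outside the span, chromosome 12 held 14 tested rows, of which 6 (42.9%) were lower and none was higher, beside 33.2% and 20.5% of all rows. The span runs only from the first to the last listed member, and miR-337-3p, the other arm of miR-337, was counted inside it. The rows of miR-337-5p, miR-493-5p and miR-673-3p, which lie 0.0, 5.6 and 13.8 kb from the span, were 3 of those 6. Among the other 11 rows, 3 were lower. Of the 12 largest falls of the whole table at 100 CPM, 6 were mature seeds placed in the span and 3 were shifted seeds. MiR-615-3p, from the Hoxc genes on another chromosome, had no count in pachytene spermatocytes, against 126 and 136 CPM in day 7 testis, at least 23.2-fold lower.

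Let-7 and the miRNAs often transcribed with it fell. The let-7 row had 13795 and 12122 CPM in pachytene spermatocytes, against 64142 and 56184 CPM in day 7 testis (log2 fold change -2.21 ± 0.41, SE; edgeR adjusted p = 0.0008928). MiR-125-5p had 4989 and 2057 CPM in pachytene spermatocytes, against 32581 and 31404 CPM in day 7 testis (log2 fold change -3.18 ± 0.54, SE; edgeR adjusted p = 0.000507). MiR-99/100-5p had 6134 and 5300 CPM in pachytene spermatocytes, against 28317 and 23614 CPM in day 7 testis (log2 fold change -2.18 ± 0.60, SE; edgeR adjusted p = 0.009971), and its call was lost without day 7 replicate 1. All 3 rows of this list were lower, beside 33.2% of all rows. Their groups did not overlap, with the pachytene libraries lower, as in 53.3% of all rows.

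Families known from smooth muscle and fibroblasts were mostly lower, with 7 of 10 rows lower and 1 higher, beside 33.2% and 20.5% of all rows. MiR-199-3p, which is processed with miR-214 from one transcript in the mouse, had 447 and 339 CPM in pachytene spermatocytes, against 14613 and 12562 CPM in day 7 testis (log2 fold change -5.11 ± 0.62, SE; edgeR adjusted p = 4.741e-05). MiR-199a-5p had 116 and 21.2 CPM in pachytene spermatocytes, against 2110 and 2166 CPM in day 7 testis (log2 fold change -4.88 ± 0.89, SE). The row of miR-214-3p had 11.6 and 15.9 CPM in pachytene spermatocytes, against 275 and 314 CPM in day 7 testis (log2 fold change -4.46 ± 0.67, SE). The 10 rows summed to 226891 and 60674 CPM in pachytene spermatocytes, against 391944 and 386156 CPM in day 7 testis, a sum led by miR-10-5p. None was at 0 in pachytene spermatocytes. The stromal messenger RNAs given above were lower as well, and any link between them and these rows was not tested. The list's part in the other results was not tested. Of its 16 named miRNAs, 11 matched a row. The others, among them miR-143-3p and miR-145a-5p, had no entry in the RefSeq table. They are in neither the counts nor the sums of this list, though an unmatched row could hold them.

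Among Sertoli and gonadal somatic miRNAs, 3 of 6 rows were lower and none was higher, beside 33.2% and 20.5% of all rows. MiR-202-5p, a gonad miRNA, had 558 and 673 CPM in pachytene spermatocytes, against 6746 and 7793 CPM in day 7 testis (log2 fold change -3.56 ± 0.56, SE; edgeR adjusted p = 0.0003099). MiR-872-5p had 604 and 758 CPM in pachytene spermatocytes, against 792 and 840 CPM in day 7 testis, and did not pass the test. The list summed to 51003 and 42292 CPM in pachytene spermatocytes, against 55139 and 61992 CPM in day 7 testis, a sum led by miR-30-5p, with no row at 0.

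Vessel and blood miRNAs with a matching row were low in both groups. MiR-126a-3p, an endothelial miRNA, had 970 and 127 CPM in pachytene spermatocytes, against 421 and 444 CPM in day 7 testis, so the pachytene replicates lay on both sides of day 7 (edgeR adjusted p = 0.7682). Neither of 2 endothelial rows was called. Of 7 blood cell rows, 3 were lower and none higher, beside 33.2% and 20.5% of all rows, with sums of 125 and 302 CPM in pachytene spermatocytes, against 440 and 343 CPM in day 7 testis. Those 3 were rows of the red cell miRNAs miR-451a and miR-144, both arms, and all 3 calls were lost with voom or without day 7 replicate 1. The miR-451a row had 29.1 and 5.30 CPM in pachytene spermatocytes, against 165 and 70.8 CPM in day 7 testis. Listed blood cell miRNAs miR-150-5p and miR-486a-5p had no entry in the RefSeq table. No row was therefore assigned to them, and they are in neither the counts nor the sums, though an unmatched row could hold them.

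Spermatogonial miRNAs gave 2 lower rows and none higher out of 5, beside 33.2% and 20.5% of all rows. MiR-224-5p had no count in pachytene spermatocytes, against 27.5 and 23.0 CPM in day 7 testis, at least 4.48-fold lower. MiR-135-5p rested on 1 count in each pachytene library, at 2.91 and 5.30 CPM, against 20.9 and 14.3 CPM in day 7 testis (edgeR adjusted p = 0.02873), and its call was lost in 15 of 20 other settings, among them each that left out a pachytene or day 7 library. MiR-146-5p had 2539 and 292 CPM in pachytene spermatocytes, against 332 and 351 CPM in day 7 testis, and its groups overlapped (edgeR adjusted p = 0.0833). It was called higher in 10 of 21 other settings, among them median-ratio factors, DESeq2 and without pachytene replicate 2. The row of miR-221-3p and miR-222-3p, which keep Kit low in undifferentiated mouse spermatogonia, had 90.1 and 10.6 CPM in pachytene spermatocytes, against 130 and 110 CPM in day 7 testis (edgeR adjusted p = 0.2314), and was called lower without pachytene replicate 1. MiR-21-5p had 2301 and 3201 CPM in pachytene spermatocytes, against 4920 and 5212 CPM in day 7 testis (edgeR adjusted p = 0.1006), and was called lower with voom, without a filter and without leptotene/zygotene replicate 2. The embryonic families of the miR-290 cluster and miR-302 had 2 of 4 rows lower, beside 33.2% of all rows, with summed levels of 37.8 and 26.5 CPM in pachytene spermatocytes, against 147 and 143 CPM in day 7 testis. Of 4 rows of epithelial miR-200 families, 1 was lower, beside the same 33.2%, namely miR-200b/c-3p at 160 and 84.8 CPM in pachytene spermatocytes, against 381 and 375 CPM in day 7 testis. The 2 lower calls of the miR-290 list and the miR-200b/c-3p call were lost without either day 7 library.

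The miR-17-92 group had 2 of 4 rows higher, beside 20.5% of all rows. The miR-25/92-3p row had 35008 and 48976 CPM in pachytene spermatocytes, against 22059 and 18223 CPM in day 7 testis (log2 fold change 1.06 ± 0.40, SE; edgeR adjusted p = 0.04436). That call was lost in 10 of 21 other settings, including each that left out a pachytene or day 7 library. MiR-18-5p had 154 and 186 CPM in pachytene spermatocytes, against 63.7 and 67.6 CPM in day 7 testis (log2 fold change 1.36 ± 0.41, SE; edgeR adjusted p = 0.01689), and lost its call without either day 7 library or pachytene replicate 2, among other settings. MiR-19-3p had 1316 and 1113 CPM in pachytene spermatocytes, against 708 and 811 CPM in day 7 testis, and did not pass the test (edgeR adjusted p = 0.2104), although 6 of 21 other settings called it higher. The miR-17/20/93-5p row, which holds other members of the cluster, had 3275 and 2067 CPM in pachytene spermatocytes, against 2924 and 3211 CPM in day 7 testis (log2 fold change -0.20 ± 0.44, SE; edgeR adjusted p = 0.7211).

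**Figure D5:**
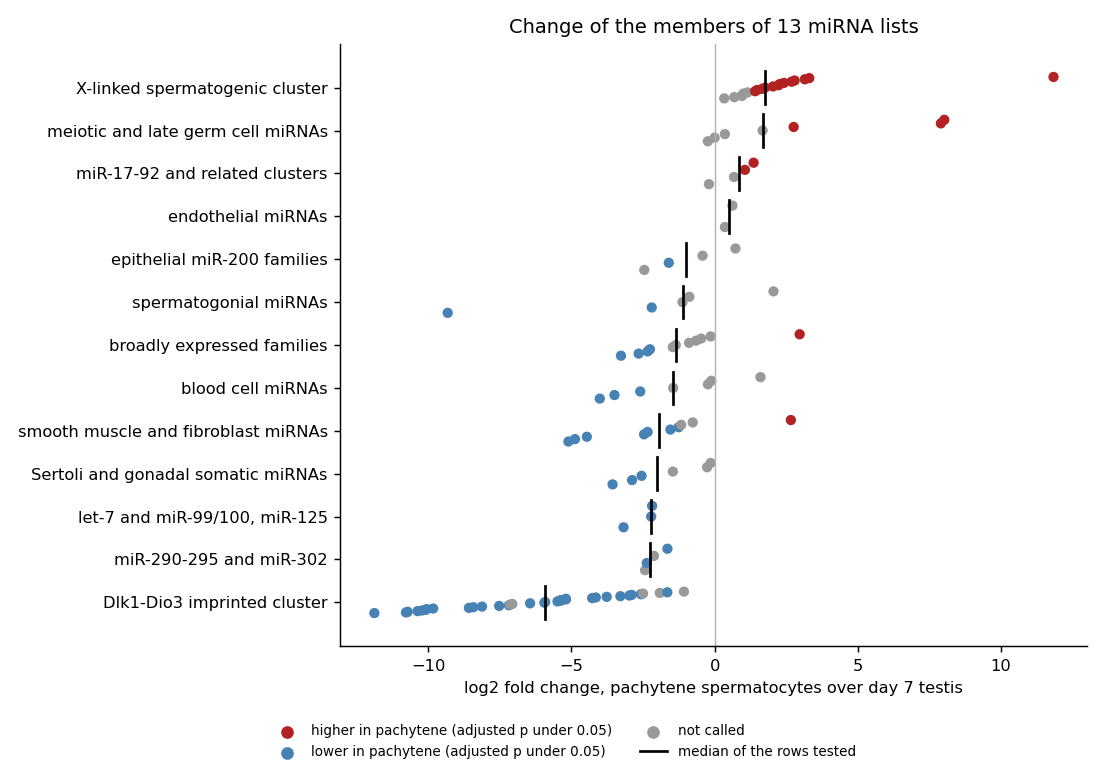
Log2 fold change of pachytene spermatocytes over day 7 testis for each tested row of 13 miRNA lists, sorted by list median (black lines), with rows called higher in red, lower in blue and not called in grey. The X-linked cluster (13 of 19 rows higher) stands at the top and the Dlk1-Dio3 cluster (29 of 34 rows lower) at the bottom.

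Several of the most abundant families were lower by a smaller factor. MiR-181-5p had 11300 and 5062 CPM in pachytene spermatocytes, against 52257 and 50731 CPM in day 7 testis (log2 fold change -2.65 ± 0.55, SE; edgeR adjusted p = 0.001738). The row of miR-148-3p and miR-152-3p had 6134 and 10649 CPM in pachytene spermatocytes, against 45587 and 39485 CPM in day 7 testis (log2 fold change -2.34 ± 0.42, SE; edgeR adjusted p = 0.0008162). MiR-27-3p had 6450 and 3509 CPM in pachytene spermatocytes, against 26244 and 28733 CPM in day 7 testis (log2 fold change -2.46 ± 0.50, SE; edgeR adjusted p = 0.001583). MiR-22-3p had 26280 and 12774 CPM in pachytene spermatocytes, against 56139 and 57848 CPM in day 7 testis (log2 fold change -1.55 ± 0.49, SE; edgeR adjusted p = 0.01995). MiR-26-5p had 15341 and 4235 CPM in pachytene spermatocytes, against 45985 and 47809 CPM in day 7 testis (log2 fold change -2.26 ± 0.71, SE; edgeR adjusted p = 0.02032). The calls of miR-22-3p and miR-26-5p were lost without either day 7 library or pachytene replicate 2. Groups did not overlap in any of these rows, with the pachytene libraries lower, as in 53.3% of all rows.

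Other abundant families did not pass the test. MiR-10-5p, the leading row of day 7 testis, had 185740 and 32624 CPM in pachytene spermatocytes, against 246240 and 244207 CPM in day 7 testis (log2 fold change -1.17 ± 0.75, SE; edgeR adjusted p = 0.2034). It was called lower without pachytene replicate 1, at -3.06, and with voom. MiR-30-5p had 49673 and 40501 CPM in pachytene spermatocytes, against 46790 and 52417 CPM in day 7 testis, with overlapping groups (log2 fold change -0.14 ± 0.43, SE; edgeR adjusted p = 0.7973). MiR-15/16-5p had 19171 and 14179 CPM in pachytene spermatocytes, against 21968 and 24330 CPM in day 7 testis (log2 fold change -0.47 ± 0.43, SE; edgeR adjusted p = 0.3697). The row GAGAUGA was among the most abundant in both groups, at 54810 and 31760 CPM in pachytene spermatocytes, against 54230 and 56755 CPM in day 7 testis. It matched no mature miRNA in the RefSeq table, which does not hold every mouse miRNA, and did not pass the test (log2 fold change -0.36 ± 0.52, SE; edgeR adjusted p = 0.5777). Of 11 rows of broadly expressed families, 1 was higher and 4 were lower, beside 20.5% and 33.2% of all rows, and their median log2 change was -1.36, beside -0.98 over all rows.

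The largest rises of all were in rows that matched no well-known miRNA of the RefSeq table. That table does not hold every mouse miRNA, so an unmatched row can still be a known miRNA. Rows with no match took 8.94% and 10.9% of the counts of pachytene libraries, against 6.20% and 6.44% of day 7 libraries. The row GAGAUGA is among them and made up most of the unmatched counts of day 7 testis. It alone held 181419 of 3392587 and 486782 of 8591736 counts of the day 7 libraries. In the pachytene libraries it held 18864 of 338443 and 5992 of 112967 counts. Of 178 unmatched rows tested, 56 were higher in pachytene spermatocytes and 31 were lower, beside 20.5% and 33.2% of all rows. The row AACAUUG, whose bases are also the seed of miR-7210-5p, had 22890 and 27949 CPM in pachytene spermatocytes, against 1.79 and 1.28 CPM in day 7 testis (log2 fold change 14.03 ± 1.17, SE; edgeR adjusted p = 5.518e-06). The unmatched row UUGUUCG had 9364 and 18811 CPM in pachytene spermatocytes, against 32.9 and 28.8 CPM in day 7 testis (log2 fold change 8.84 ± 0.85, SE). The groups stood far apart in both rows.

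A further 16 rows of at least 100 CPM in pachytene spermatocytes had no count in either day 7 library. Of these, 12 matched no miRNA in the RefSeq table, 2 are a shifted seed and 2 are mature seeds, among them miR-881-5p of the X cluster. The row CCAUGAA had 2827 and 1007 CPM in pachytene spermatocytes and none in day 7 testis, at least 7620-fold higher. The row CUCCAGC had 1874 and 1436 CPM in pachytene spermatocytes and none in day 7 testis, at least 6580-fold higher. Of the 16 rows, 8 share 6 bases with another of them in shifted register, as CUCCAGC and UCCAGCC do, so they need not all be separate RNAs. The unmatched row AAGAAAC, which did have day 7 counts, had 2185 and 2597 CPM in pachytene spermatocytes, against 0.299 and 0.350 CPM in day 7 testis (log2 fold change 12.65 ± 1.16, SE). Of the 12 largest rises at 100 CPM, 10 matched no miRNA in the RefSeq table and none lies in the Dlk1-Dio3 span. All 16 had counts in both libraries of leptotene/zygotene spermatocytes, the preceding meiotic stages purified from the same kind of mice. Their summed level was 10315 and 5549.6 CPM in pachytene spermatocytes, against 2659.2 and 3951.1 CPM in leptotene/zygotene spermatocytes, and none differed between these stages at an adjusted p under 0.05 (edgeR).

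Against leptotene/zygotene spermatocytes, pachytene spermatocytes differed in 3 of 745 rows (0.403%) by edgeR's quasi-likelihood test, while 87 rows had an unadjusted p under 0.05. DESeq2 called 27 rows and voom called 0. Replicates varied widely in both spermatocyte stages, and in the leptotene/zygotene group the libraries held 820461 and 119746 counts. The 5p row of miR-34 and miR-449 had 108245 and 145943 CPM in pachytene spermatocytes, against 236172 and 149937 CPM in leptotene/zygotene spermatocytes (log2 fold change -0.60 ± 0.42, SE; edgeR adjusted p = 0.6095). MiR-191-5p had 123246 and 33393 CPM in pachytene spermatocytes, against 46558 and 22589 CPM in leptotene/zygotene spermatocytes (log2 fold change 1.18 ± 0.59, SE; edgeR adjusted p = 0.4628). The X cluster summed to 143518 and 70189 CPM in pachytene spermatocytes, against 117681 and 61127 CPM in leptotene/zygotene spermatocytes. The Dlk1-Dio3 span summed to 2795 and 1696 CPM in pachytene spermatocytes, against 3471 and 1806 CPM in leptotene/zygotene spermatocytes. With replicates this far apart, a missed threshold does not show that the 2 stages were alike.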

How the data were processed

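Raw counts of small RNA were taken from the authors' deposited table, which has a row for each word of 7 bases and a column for each library. The RNA table, also raw counts as deposited, served only for marker genes, without its 5 HTSeq summary rows. A further pachytene marker of the chosen list is not reported here. The submitters' processing notes name the build mm9 and the tools edgeR 3.6.8, HTSeq 0.6.1, Bowtie 0.12.7 and BWA 0.7.8; their roles, settings and the way reads were assigned to words are not stated there. TRIzol extraction and a TruSeq small RNA kit are named in the labels' protocols.

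Rows were named by positions 2 to 8 of 1738 mature miRNAs (1398 seeds) in a RefSeq table of GRCm38.p6, which does not hold every mouse miRNA. A row without a match can therefore still be a known miRNA, and listed miRNAs without an entry were left out of their lists. A minimum count of 10 in filterByExpr left 745 rows with 99.8% of pachytene counts. After TMM scaling, edgeR 4.0.16 (R 4.3.3) fitted all 10 small RNA libraries of the 5 stages at once, with 5 residual degrees of freedom. Quasi-likelihood F tests were two-sided, adjusted by Benjamini-Hochberg over all rows at 0.05. Each SE was obtained by dividing the absolute log2 change by the root of F. P-values rest on 2 replicates per stage. Floors of 3 counts and exact 95% intervals cover counting error only.

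Named were the 12 largest rises and falls of at least 100 CPM with libraries that do not overlap, the 12 most abundant rows per group, and up to 6 members of each of 13 lists at 10 CPM; rows outside this rule (miR-34b/c-3p and the shifted 5p seed, miR-1839-5p, miR-192/215-5p, UUGUUCG, and members of the X and chromosome 12 groups) were chosen after their values were seen. Members and lists were chosen with earlier results of these data known. On simulated counts of 661 rows for this comparison, 10% of 2-fold, 55% of 4-fold and 90% of 8-fold changes were recovered, with 1 false call among 32. The simulation gave all rows and libraries the same spread. In the data, log2 differences between replicates had an SD of 1.68 in pachytene spermatocytes and 0.38 in day 7 testis. The simulated rates therefore need not hold for the data. Alternatives were 4 other scalings, DESeq2 1.42.0, limma 3.58.1 voom, other filters, a fit of the compared stages alone, a replicate block, a minimum change of 2-fold, and leaving out each library.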

Additional observations from a re-analysis of the deposited data

Results flagged for a closer look

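The difference between pachytene and leptotene/zygotene spermatocytes passed the test in 3 rows, which marks them for a second look. The miR-451a row (AACCGUU) had 29.1 and 5.30 CPM in pachytene spermatocytes, against 589 and 274 CPM in leptotene/zygotene spermatocytes (log2 fold change -4.49; edgeR adjusted p = 0.0303). The row CCUGUAC matched no mature miRNA in the RefSeq table, which does not hold every mouse miRNA. It had 317 and 122 CPM in pachytene spermatocytes, against 3100 and 7044 CPM in leptotene/zygotene spermatocytes (log2 fold change -4.51; edgeR adjusted p = 0.0244). The row GAAGGGG, the seed of miR-3154 shifted by a base, had 523 and 302 CPM in pachytene spermatocytes, against 46.0 and 29.9 CPM in leptotene/zygotene spermatocytes (log2 fold change 3.37; edgeR adjusted p = 0.0244). It had no count in day 7 replicate 1 and 1 count in day 7 replicate 2. All 3 calls were lost with voom, with only the stages compared and without pachytene replicate 1. The adjusted p of GAAGGGG was 0.279 and that of miR-451a 0.148 without leptotene/zygotene replicate 1. The adjusted p of the 3 rows over the other settings reached 0.666 at most, for miR-451a with voom.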

How the results depend on the processing

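The count of 400 rows that differed between pachytene spermatocytes and day 7 testis (153 higher, 247 lower) stayed within 1.5 times under every other scaling and tool tried, from 331 with voom to 403. It was 118 over rows of at least 100 CPM (64 higher, 54 lower), where only 169 rows were tested. Leaving out 1 library gave 274 to 451 changed rows, 99 to 170 higher and 159 to 300 lower. The pachytene and leptotene/zygotene difference was called in 27 rows with DESeq2, 14 without a filter, 7 over rows of at least 100 CPM, 0 with voom, 0 with only the stages compared, and 0 to 5 with a library left out. Of 86 named rows, 12 had changes on both sides of 0 over the settings, and 1 of these was called on the other side: the log2 fold change of GUAAACA, the miR-30-5p row, was 0.38 with DESeq2 (adjusted p = 0.04259); the cause was not tested. Replicate numbers did not pair the groups (correlation of same-numbered deviations 0.00166), and with the replicate number as a block the count was 367 rows (142 higher, 225 lower) and 3 rows for the spermatocyte stages. Counting only unshifted seeds as matches raised the unmatched share to 14.1% and 13.5% of pachytene counts, against 13.0% and 13.2% of day 7 counts. Depth limits the pachytene side most: a floor of 3 counts is 8.72 and 15.9 CPM in its libraries, against 0.897 and 0.350 CPM in day 7 libraries.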
